A study of Mus musculus with 47 samples.

Results

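The 38 cell cycle and mitosis genes described here were chosen by symbol and were all found among the 20456 genes of the count table. For the description, 16 of them were grouped as S-phase members, whose products license, fire or supply DNA replication, and 22 as mitotic members, whose products act from the end of replication to cell division. RNA came from whole liver, lung and brain of C57BL/6 embryos at E18.5 and gave 47 libraries in 12 groups. S226A embryos were homozygous for a Daxx allele that abolishes binding of the histone variant H3.3 (Daxx S226A/S226A), and Y130A embryos were homozygous for an allele that abolishes binding of the chromatin remodeler Atrx (Daxx Y130A/Y130A). Each mutant tissue had 4 libraries and was set against the same tissue of wild-type littermates, with 4 libraries in every wild-type group except that of the Y130A lungs, which had 3. The study matched mutants and wild types by litter and sex, but the Y130A lung of litter 3069 had no wild-type lung of its litter among the libraries used here. Both alleles were made with CRISPR/Cas9 in C57BL/6N zygotes, together with silent changes near the site, founders were crossed back to C57BL/6J for 2 generations, and the mutation was present in every cell of the embryo. The paper allows that Y130A may not remove Atrx binding fully, since some co-immunoprecipitations showed a faint ATRX band. It also reports more Daxx protein in Y130A and less in S226A, in embryonic fibroblasts and E18.5 lung, most clearly in fibroblasts. The comparisons address how much of the replication and division programme each tissue expressed just before birth, and whether it differed in S226A or Y130A embryos.

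A dividing cell first licenses its replication origins by loading the MCM helicase with the help of Cdc6 and Cdt1, then fires them and copies its DNA in S phase, and then separates the copies in mitosis. Cyclin E and E2F transcription factors act at the entry into S phase, and many genes of replication are transcribed then through E2F sites. Genes of mitosis are transcribed later, through promoter elements known as CHR (cell cycle genes homology region) and CCAAT boxes that are bound by MuvB complexes with B-Myb or FoxM1 and by NF-Y. Their transcripts are low in resting cells, so their level in a whole tissue depends on how many of its cells are cycling. Fetal liver is the site of blood formation at this stage, while most neurons of the fetal brain have left the cycle.

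Promoters of members with these elements are shown first, to let the motif letters counted here be read in their context. RefSeq windows on GRCm38.p6, from 250 bases before to 50 bases after the start of transcription, were found for 31 of the 38 members (13 S-phase and 18 mitotic). An E2F motif (TTTCGCGC, TTTGGCGC or TTTCCCGC, on either strand) was present in 6 of 13 S-phase windows (46.2%) and 1 of 18 mitotic windows (5.6%), against 1.8% of 32851 windows of all genes. A CHR motif (TTTGAA or TTCGAA, on either strand) was present in 14 of 18 mitotic windows (77.8%) and 2 of 13 S-phase windows (15.4%), against 19.2% of all windows. CCAAT, on either strand, was present in 16 of 18 mitotic windows (88.9%), in 8 of 13 S-phase windows (61.5%) and in 37.4% of all windows. All 14 mitotic windows with a CHR motif also held CCAAT, a pair found in 7.5% of all windows. A match is a description of the letters and not evidence of a bound site. The 200 bases before the start are printed below for 4 mitotic and 3 S-phase members, those with the most kinds of motif in their windows, ties taken in list order. Mcm7, which held all 3 kinds, is named only, because its stretch lies within an annotated first exon. The last 26 bases printed for Cdk1 also lie in an annotated exon. Motif letters are in capitals.
Cdk1, chr10:69352913-69353112, minus strand: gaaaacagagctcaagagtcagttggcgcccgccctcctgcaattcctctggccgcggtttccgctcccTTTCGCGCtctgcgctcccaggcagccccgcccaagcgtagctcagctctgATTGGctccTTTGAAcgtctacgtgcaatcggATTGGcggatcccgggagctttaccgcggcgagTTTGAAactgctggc
Mki67, chr7:135716380-135716579, minus strand: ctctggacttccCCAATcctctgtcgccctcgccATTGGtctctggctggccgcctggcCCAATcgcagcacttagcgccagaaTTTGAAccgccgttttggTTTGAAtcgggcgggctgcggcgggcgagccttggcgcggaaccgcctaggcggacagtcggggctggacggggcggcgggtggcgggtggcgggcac
Top2a, chr11:99024190-99024389, minus strand: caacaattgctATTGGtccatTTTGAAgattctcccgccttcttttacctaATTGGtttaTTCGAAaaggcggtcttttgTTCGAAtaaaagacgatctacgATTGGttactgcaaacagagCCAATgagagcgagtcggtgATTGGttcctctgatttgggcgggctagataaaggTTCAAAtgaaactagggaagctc
Ccnb2, chr9:70421555-70421754, minus strand: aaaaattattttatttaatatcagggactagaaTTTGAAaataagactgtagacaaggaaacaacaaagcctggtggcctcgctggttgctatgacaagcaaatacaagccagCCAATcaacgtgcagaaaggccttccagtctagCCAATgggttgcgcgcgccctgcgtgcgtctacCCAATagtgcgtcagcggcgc
Mcm5, chr8:75109309-75109508, plus strand: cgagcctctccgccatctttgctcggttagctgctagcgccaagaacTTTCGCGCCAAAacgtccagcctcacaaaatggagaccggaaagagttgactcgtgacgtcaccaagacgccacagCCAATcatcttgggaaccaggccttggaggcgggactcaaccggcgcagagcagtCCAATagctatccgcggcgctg
Mcm2, chr6:88898781-88898980, minus strand: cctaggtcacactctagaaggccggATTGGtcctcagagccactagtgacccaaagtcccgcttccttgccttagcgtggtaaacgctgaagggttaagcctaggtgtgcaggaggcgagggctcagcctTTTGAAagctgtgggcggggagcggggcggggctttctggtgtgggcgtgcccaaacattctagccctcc
Mcm3, chr1:20820313-20820512, minus strand: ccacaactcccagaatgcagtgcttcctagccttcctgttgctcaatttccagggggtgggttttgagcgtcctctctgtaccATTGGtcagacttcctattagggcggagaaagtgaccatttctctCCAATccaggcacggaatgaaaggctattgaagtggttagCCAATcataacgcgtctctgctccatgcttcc
The stretch of Cdk1, the kinase that drives entry into mitosis, held 1 E2F motif, 2 CHR motifs and 2 CCAAT boxes. Top2a, the topoisomerase that untangles copied chromosomes, held 4 CHR motifs and 5 CCAAT boxes. In Mcm5, a subunit of the replicative helicase, a forward and a reverse E2F motif overlapped and read as 1 run of capitals. Mcm3, another helicase subunit, had its 2 E2F motifs after the start, between bases 20 and 46, so that only CCAAT is in capitals in the printed stretch.

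Sequencing was deeper in the Y130A litters (36351738 to 54885020 counts in genes) than in the S226A litters (15722147 to 26190403), and all 38 members passed the filter on low counts together with 16854 other genes (16892 in all). Levels are given as CPM, counts relative to the TMM-scaled library size, and a score is the mean of log2(CPM + 1) over the members of a list. Each tissue expressed its own markers: the summed CPM of 6 hepatocyte genes was 179101 to 183686 in the wild-type livers of the S226A litters, that of 6 lung epithelium genes was 7414 to 10515 in the lungs and that of 5 neuron genes was 5639 to 5962 in the brains. Some libraries stood apart. Wild-type lung replicate 3 of the S226A litters had the lowest mitotic score of all 15 lungs (4.67, against 5.34 to 5.53 in the other 3 of its group). Wild-type liver replicate 2 of the S226A litters and Y130A liver replicate 1 held transcripts of squamous epithelium (summed CPM of 6 genes 175 and 125, against group medians of at most 3.16 in liver). The hepatocyte score ranged from 1.63 to 6.55 in the 15 lungs, against 13.3 in the lowest liver. It was highest of its group in S226A lung replicate 2 (4.69) and in wild-type lung replicate 2 of the S226A litters (5.36). The part of such transcripts in the members' values was not tested. Wild-type lung replicate 4 of the S226A litters came from another embryo than the liver and brain of that number. The paper called a wild-type lung of the S226A comparison a possible outlier in transposable element expression. The sample number printed there differs from that of replicate 4 only by swapped digits. A wild-type lung of litter 3069, which the study had removed as an outlier, was not analysed here.

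Wild-type liver expressed all 38 members above brain and lung. A member passed the test when its adjusted p, from edgeR's quasi-likelihood test with Benjamini-Hochberg adjustment over all 16892 genes, was below 0.05. Against brain, 38 of 38 members were higher in liver, where 87.3% of all genes tested passed in either direction and 41.8% were higher. The median log2 fold change was 2.54 over the S-phase members and 2.64 over the mitotic members, and -0.08 over all genes. Against lung, 38 of 38 members were again higher in liver (80.1% of all genes passed and 37.8% were higher), with medians of 2.01 and 1.66. All 38 also met the stringent criteria of adjusted p below 0.01, log2 fold change above 1 and SE below 1, both against brain (background 26.9% of genes higher) and against lung (18.9%). In whole tissue, more cycling cells and more of these transcripts per cell cannot be told apart. Summed over 12 erythroid genes, wild-type liver had 22672 to 30599 CPM in the S226A litters, lung 2885 to 5608 and brain 410.2 to 667, with no gene of the list at 0; the part of blood cells in the levels of the members was not tested.

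**Figure D1:**
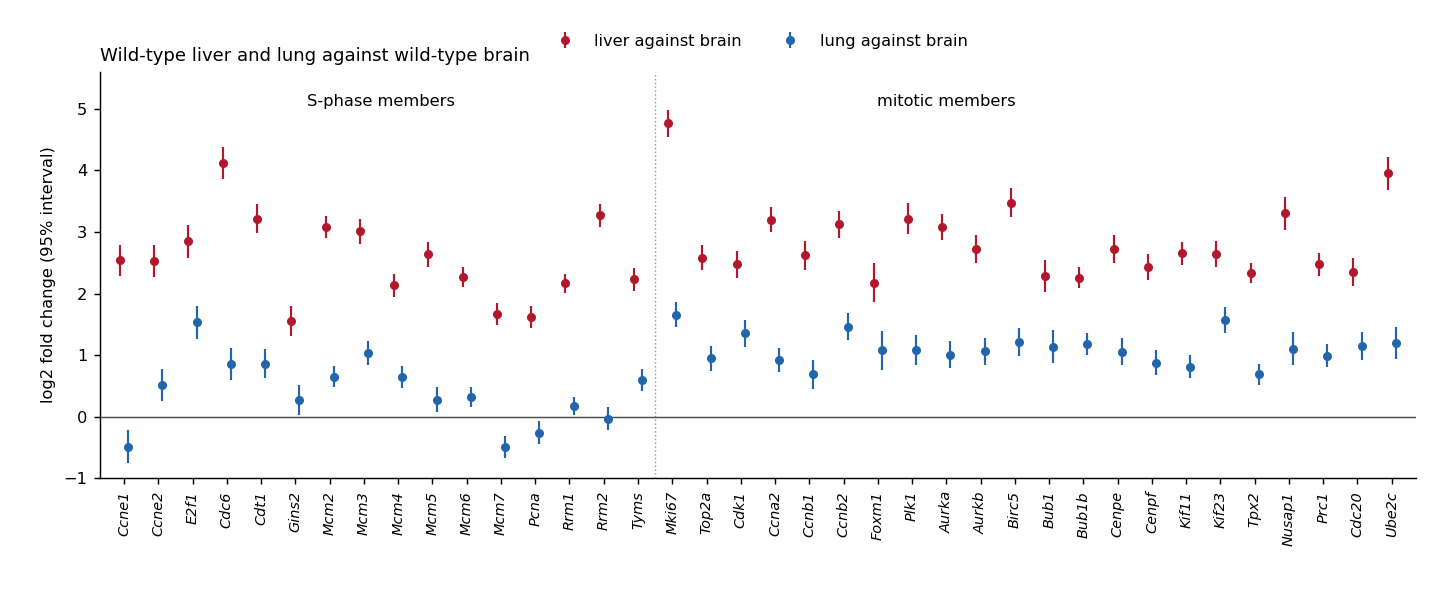
Log2 fold change of each of the 38 members (vertical axis, bars are 95% intervals of the edgeR estimate) in wild-type liver and wild-type lung against wild-type brain, with 8, 7 and 8 libraries. All liver points lie between 1.55 (Gins2) and 4.76 (Mki67), and the lung points lie between 0.69 and 1.66 for mitotic members but between -0.50 and 1.54 for S-phase members.

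Among mitotic members, Mki67, which encodes the Ki-67 protein that coats mitotic chromosomes, differed most. Its lowest, median and highest CPM were 3027, 3156 and 3675 in 8 wild-type livers, 249.5, 373 and 509 in 7 lungs and 105, 119 and 139 in 8 brains. The tissues did not overlap, and the log2 fold change of liver over brain was 4.76 ± 0.11 (SE). Top2a read 674, 760.4 and 921 in liver, 126, 260.3 and 354 in lung and 110.4, 128 and 146 in brain. Cdk1 read 97.7, 108 and 129 in liver, 27.1, 53.4 and 72.6 in lung and 17.9, 19.4 and 22.8 in brain. For Top2a the lowest lung lay inside the range of the brains, and for Cdk1 it lay above every brain. Ccnb1, the cyclin that activates Cdk1 for mitosis, read 88.2, 101 and 143 in liver, 13.8, 26.9 and 42.1 in lung and 14.3, 17.6 and 19.5 in brain. Plk1, a kinase of spindle assembly and cytokinesis, read 51.7, 59.4 and 62.0 in liver, 8.21, 13.7 and 17.1 in lung and 5.59, 6.13 and 7.54 in brain. Foxm1, a transcription factor of mitotic genes, had the smallest difference of liver over brain among mitotic members (2.18 ± 0.15), with 35.6, 45.9 and 48.1 CPM in liver, 11.3, 18.0 and 39.7 in lung and 8.33, 9.81 and 11.3 in brain. Its highest lung, wild-type replicate 4 of the S226A litters, was above the lowest liver, and Foxm1 was the only member whose wild-type livers and lungs overlapped, where 23.7% of all genes were higher in liver without overlap. After Mki67, the largest differences of liver over brain among mitotic members were 3.95 ± 0.13 (SE) for Ube2c, a ubiquitin carrier of the anaphase-promoting complex, and 3.48 ± 0.12 for Birc5 (survivin), a subunit of the chromosomal passenger complex.

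Among S-phase members, Cdc6, the loader of the MCM helicase, differed most between liver and brain (4.13 ± 0.13). It read 80.2, 93.8 and 106 CPM in liver, 5.81, 9.93 and 12.2 in lung and 3.59, 5.58 and 6.08 in brain. Rrm2, the cell cycle regulated subunit of ribonucleotide reductase, read 296, 345 and 379 in liver, 20.5, 36.5 and 39.6 in lung and 31.0, 35.0 and 39.0 in brain, so that lung and brain overlapped. Mcm2 read 195, 239.7 and 257 CPM in liver, 32.8, 44.0 and 48.1 in lung and 23.1, 27.5 and 32.0 in brain. Mcm5 read 174, 206 and 236 in liver, 24.4, 41.0 and 48.0 in lung and 26.9, 33.4 and 39.9 in brain. The lungs lay above every brain for Mcm2 but not for Mcm5. Pcna, the sliding clamp of the replicative polymerases, read 178, 195 and 249.5 in liver, 36.8, 56.6 and 65.0 in lung and 56.2, 66.7 and 76.5 in brain. Ccne1, the cyclin E1 of S-phase entry, read 36.7, 50.4 and 54.7 in liver, 4.11, 5.39 and 8.70 in lung and 6.97, 8.21 and 9.73 in brain. For these 2 genes the median lung was below the median brain. E2f1, an activator of S-phase genes, read 20.7, 24.9 and 30.7 in liver, 7.9996, 8.96 and 18.8 in lung and 2.73, 3.52 and 4.05 in brain, and every lung was above every brain. The smallest differences of liver over brain were those of Gins2, a subunit of the replicative helicase (1.55 ± 0.12), Pcna (1.62 ± 0.09) and Mcm7 (1.67 ± 0.09). Gins2 shares 2758 of its 4097 exon bases with Gse1 on the other strand, and since the strand setting of the counting is not given in the sources used here, its counts are uncertain.

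Ranked by log2 fold change of liver over brain, the 6 members with the largest values were Mki67 (4.76), Cdc6 (4.13), Ube2c (3.95), Birc5 (3.48), Nusap1 (3.30) and Rrm2 (3.27). The 6 smallest were Gins2 (1.55), Pcna (1.62), Mcm7 (1.67), Mcm4 (2.13), Rrm1 (2.17) and Foxm1 (2.18), of which all but Foxm1 act in S phase. Over lung, the largest were Rrm2 (3.30), Cdc6 (3.27), Mki67 (3.10), Ccne1 (3.03), Ube2c (2.75) and Mcm2 (2.43), and the smallest were Kif23 (1.07), Bub1b (1.08), Foxm1 (1.099), Cdk1 (1.12), Bub1 (1.15) and Cdc20 (1.21). The smallest values over lung were thus all of mitotic members. TMM scaling bears on these values. With library size alone the median of all genes was -0.66 rather than -0.081 on the log2 scale for liver over brain and -0.71 rather than -0.076 for liver over lung. The called genes that were higher in liver than in brain then numbered 5078 of 15024, against 7064 of 14755 with TMM, and those higher than in lung 3674 of 14346, against 6379 of 13525. The members' medians were 1.95 (S-phase) and 2.06 (mitotic) over brain and 1.37 and 1.03 over lung, with 38 of 38 higher in both.

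Per kilobase of exon the order of the members differed between tissues. Mki67 stood first in liver with a median of 314 CPM per kilobase and first in lung with 37.0, but sixth in brain with 11.8. In brain Pcna stood first (27.8 CPM per kilobase) and Mcm7 next (17.1), whereas these 2 genes held rank 4 and rank 8 in liver. Rrm2 came after Mki67 in liver at 125 CPM per kilobase and Top2a after that at 84.4. The 6 subunits of the MCM helicase, which assemble in equal numbers, ranged from 34.5 (Mcm2) to 68.8 (Mcm6) CPM per kilobase in liver, from 6.32 (Mcm2) to 18.3 (Mcm6) in lung and from 3.95 (Mcm2) to 17.1 (Mcm7) in brain. Gins2 was the lowest member in liver (4.08) and lung (1.76), and Cdc6 the lowest in brain (1.07).

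Wild-type lung stood above brain in all mitotic members but not in all S-phase members. Against brain, 34 of 38 members were higher in wild-type lung and 3 were lower, where 84% of all genes passed, 41.3% higher and 42.8% lower. All 22 mitotic members were higher, with a median of 1.08, led by Mki67 (1.66 ± 0.10), Kif23 (1.57 ± 0.11), a motor of the midzone spindle, and Ccnb2 (1.46 ± 0.11), the B-type cyclin B2. Of the S-phase members 12 were higher and 3 lower, with a median of 0.42. E2f1 (1.54 ± 0.13) and Mcm3 (1.04 ± 0.10) were the S-phase members that met the stringent criteria, beside 15 mitotic members, for a background of 25.7% of all genes. Mcm7 shares 321 of its 4426 exon bases with Ap4m1 and 64 with Cops6, both on the other strand, so its counts are uncertain as well. The 3 lower genes were Mcm7 (-0.50 ± 0.09, adjusted p = 3.16e-06), Ccne1 (-0.48 ± 0.13, adjusted p = 9.22e-04) and Pcna (-0.26 ± 0.09, adjusted p = 0.0124), and Rrm2 did not pass (-0.03 ± 0.09, adjusted p = 0.788). The call on Pcna was lost in the S226A litters alone (adjusted p = 0.0535) and in the Y130A litters alone (adjusted p = 0.11). As a description, the mitotic score minus the S-phase score was -0.008 to 0.21 in 8 brains, 0.28 to 0.66 in 8 livers and 0.44 to 1.09 in 7 lungs. The value was thus higher in every lung than in every brain, and lungs and livers overlapped.

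**Figure D2:**
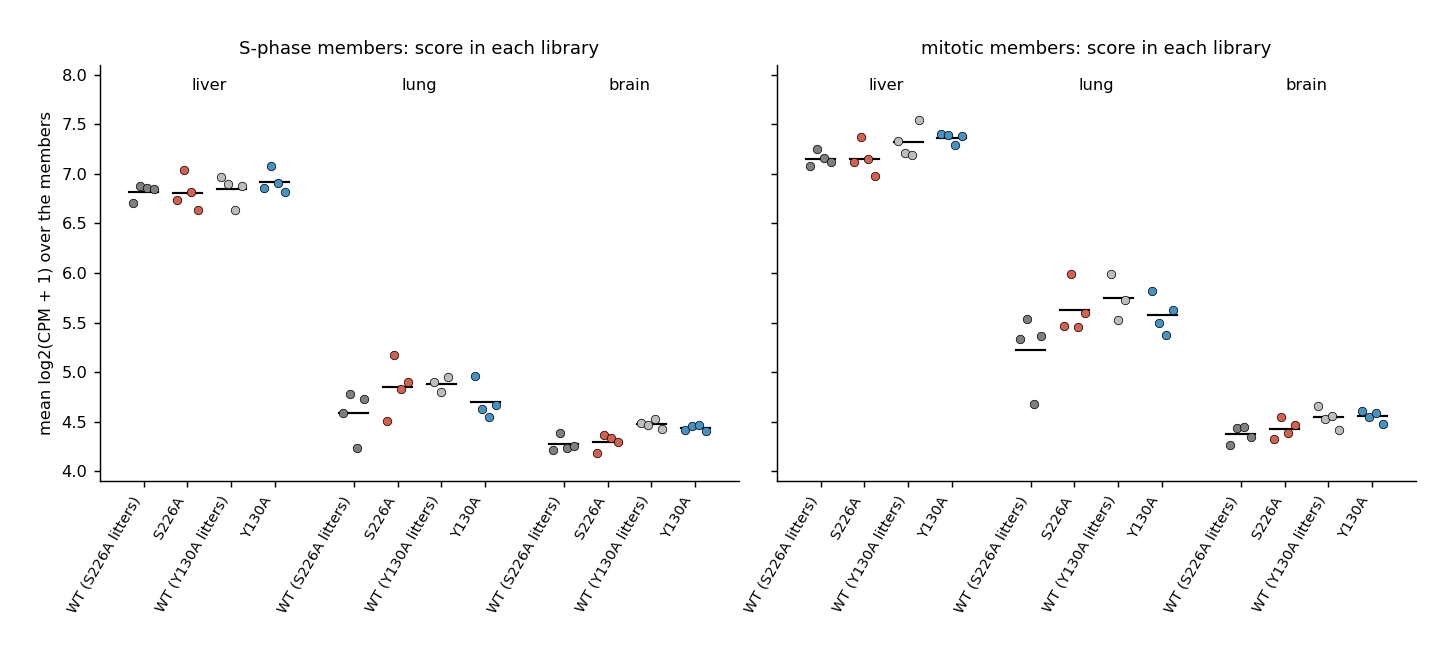
S-phase score (left) and mitotic score (right), the mean log2(CPM + 1) over 16 and 22 members, in each of 47 libraries by tissue and group. Points are libraries and bars are group means. Every liver lies above every lung and brain in both scores, and the wild-type lungs of the S226A litters reach from 4.67 to 5.53 in the mitotic score.

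The wild-type embryos of the 2 sets of litters, which carry no mutation, were not alike in lung. There 20 of 38 members were lower in the S226A litters than in the Y130A litters, 17 mitotic and 3 S-phase, where 20.1% of all genes passed and 9.24% were lower. The median log2 difference was -0.56 over the mitotic members and -0.27 over the S-phase members. The most negative were Ccne2, the cyclin E2 of S-phase entry (-0.86 ± 0.19, adjusted p = 9.14e-04), Birc5 (-0.82 ± 0.16, adjusted p = 3.55e-04) and Ccna2, cyclin A2 (-0.66 ± 0.14, adjusted p = 6.46e-04). The other 17 were Kif11 (-0.65), Cenpf (-0.61), Aurka (-0.59), Tpx2 (-0.59), Bub1b (-0.58), Ccnb1 (-0.58), Top2a (-0.58), Cdk1 (-0.57), Nusap1 (-0.57), Prc1 (-0.55), Cdc6 (-0.54), Aurkb (-0.51), Ube2c (-0.50), Cdc20 (-0.49), Ccnb2 (-0.48), Cenpe (-0.48) and Rrm1 (-0.38). The mitotic score was 5.34, 5.53, 4.67 and 5.36 in the 4 wild-type lungs from S226A litters, against 5.99, 5.52 and 5.73 in the 3 from Y130A litters. The count fell to 10 without lung replicate 3 of the S226A litters and to 8 without replicate 1 of the Y130A litters, and to 0 when only these libraries were fitted. In brain 3 members were lower in the S226A litters (5.98% of all genes passed and 4.51% were lower): Ccne2 (-0.57 ± 0.18, adjusted p = 0.0465), Ube2c (-0.57 ± 0.18, adjusted p = 0.0498) and Bub1b, a kinase of the spindle checkpoint (-0.38 ± 0.12, adjusted p = 0.0423). This count was 0 with RLE factors, with library size alone and with no filter on low counts, 8 with only the libraries compared, and 0 to 2 with 1 library left out: 2 without replicate 2 of the S226A litters, 1 without replicate 2 of the Y130A litters and 0 without any other. Of the brain estimates 36 of 38 were negative, where 39.1% of all genes had a positive one. Without overlap 13 members were lower in these brains, 7 S-phase and 6 mitotic, where 25.3% of all genes did not overlap in either direction. In liver no member passed, where 13.1% of all genes did, with 5 at an unadjusted p below 0.05 (28.0% of all genes). The 2 sets also differed in sequencing depth, which cannot be told apart from the litters.

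S226A lung was the mutant tissue with called members. There 5 of 38 members rose, 1 S-phase and 4 mitotic, and none fell, where 1.88% of all genes passed and 0.852% were higher. All 22 mitotic members and 15 of the 16 S-phase members had a positive log2 fold change, with medians of 0.44 and 0.30 against 0.00 over all genes, and 30 members, among them E2f1 with a negative estimate, had an unadjusted p below 0.05 (16.2% of all genes did). The effects were small: the largest was 0.67 on the log2 scale and no member met the stringent criteria. The comparison is read against a wild-type group in which replicate 3 was low: without it the medians were 0.24 for the mitotic and 0.18 for the S-phase members and no member passed. No member passed either without wild-type replicate 4, S226A replicate 2 or S226A replicate 4, while 9 passed without S226A replicate 1, 10 without S226A replicate 3, 11 without wild-type replicate 1 and 19 without wild-type replicate 2. The count was also 0 when only the compared libraries were fitted and with no filter on low counts, 1 with library size alone, 4 with RLE factors and 9 with DESeq2.

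The member with the largest rise was Ccne2 (chromosome 4, 11191351 to 11204779, plus strand, GENCODE M21 on GRCm38). It read 12.1, 19.2, 14.5 and 13.1 CPM in S226A lung and 12.9, 11.3, 5.06 and 7.56 in the wild-type lungs, or 14.7 ± 3.12 against 9.21 ± 3.57 (mean ± SD, n = 4 each). The groups overlapped through wild-type replicate 1, and the log2 fold change was 0.67 ± 0.18 (SE, adjusted p = 0.0412). Ccne2 shares 609 of its 3495 exon bases with Ints8 on the other strand. Likewise Ccna2 shares 510 of 4083 with Exosc9 and Ube2c 592 of 2600 with Tnnc2. Birc5 (chromosome 11, 117849251 to 117855743, plus strand) read 21.5, 30.6, 20.4 and 25.9 CPM in S226A lung and 21.1, 16.9, 10.2 and 18.2 in wild type, with a log2 fold change of 0.57 ± 0.15 (adjusted p = 0.0436). Wild-type replicate 1 reached into the S226A range here too. Cenpf (chromosome 1, 189640606 to 189688086, minus strand), a protein of the outer kinetochore, read 108, 133, 109 and 107 CPM in S226A lung and 79.8, 105, 54.6 and 82.4 in wild type, and the groups did not overlap. Its log2 fold change was 0.50 ± 0.14 (adjusted p = 0.0483). Ccna2 (chromosome 3, 36564865 to 36572150, minus strand) rose by 0.49 ± 0.13 on the log2 scale (adjusted p = 0.0411), with 64.7, 83.3, 59.8 and 63.0 CPM in S226A and 52.1, 63.4, 31.3 and 45.8 in wild type. Kif11 (chromosome 19, 37376403 to 37421859, plus strand), the motor that drives spindle poles apart, rose by 0.46 ± 0.13 (adjusted p = 0.0436), with 68.4, 86.8, 71.1 and 68.7 CPM in S226A and 60.3, 57.7, 36.0 and 60.1 in wild type. In these 5 genes wild-type replicate 3 was the lowest of the 8 lungs. Members whose groups did not overlap numbered 3, all mitotic and higher (Ccnb1, Cenpf and Kif11), where 2.09% of all genes were higher without overlap.

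**Figure D3:**
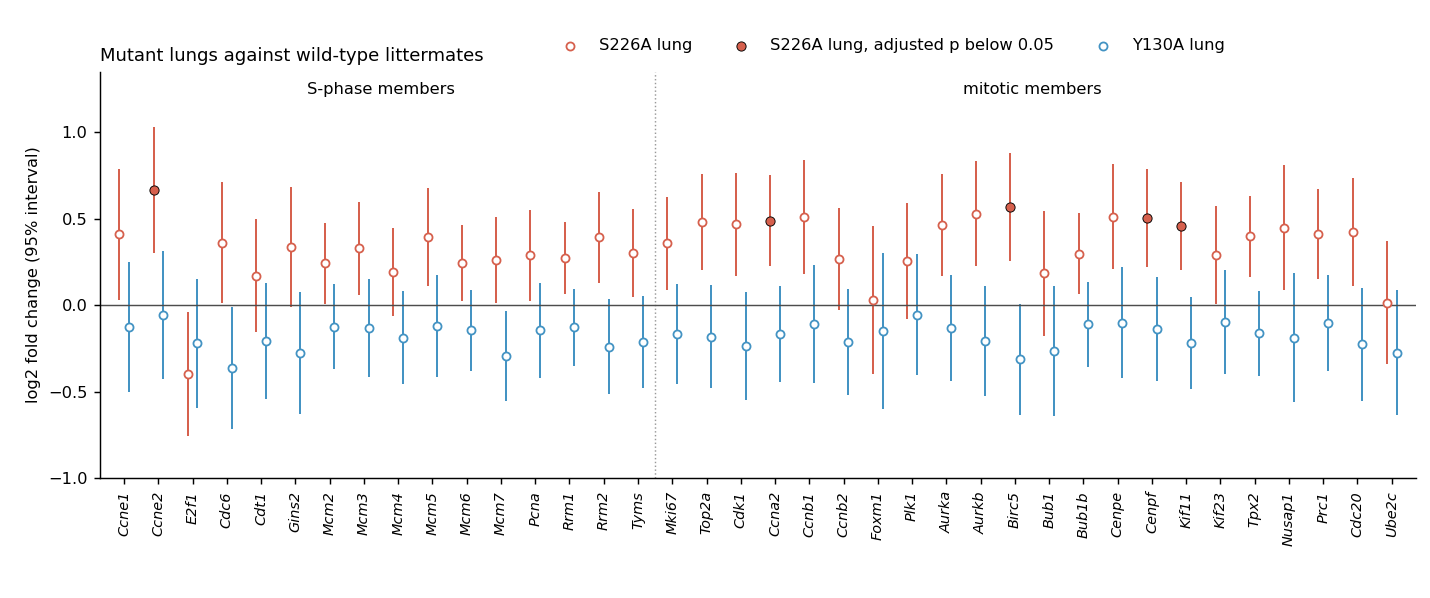
Log2 fold change of the 38 members in S226A lung (4 against 4 libraries) and Y130A lung (4 against 3) relative to wild-type littermates, with 95% intervals. Filled points passed at an adjusted p below 0.05. The S226A points lie above 0 except for E2f1 (-0.40), and the Y130A points lie between -0.36 and -0.05.

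The other mitotic members did not pass in S226A lung. Mki67 read 370.2, 543, 394 and 467 CPM in S226A lung and 363, 388, 249.5 and 382 in wild type (0.36 ± 0.13 on the log2 scale, adjusted p = 0.151). Top2a read 248, 364, 248.7 and 272 against 211, 262, 126 and 212 (0.48 ± 0.14, adjusted p = 0.0559), and Cdk1 read 48.9, 75.5, 47.4 and 61.1 against 45.9, 56.7, 27.1 and 38.4 (0.47 ± 0.15, adjusted p = 0.0855). In all 3 genes S226A replicate 2 was the highest and wild-type replicate 3 the lowest of the 8 lungs. Ccnb1 read 28.8, 41.3, 29.6 and 29.1 CPM in S226A and 26.9, 25.3, 13.8 and 24.3 in wild type, with every S226A lung above every wild-type lung (two-sided exact permutation p = 0.0286, the smallest that 4 against 4 allows; adjusted p = 0.0912 in the fit over all genes). Plk1 read 10.3, 21.4, 12.2 and 14.997 against 10.7, 13.7, 8.21 and 16.8 (0.26 ± 0.17, adjusted p = 0.473). Foxm1 had 17.0, 27.7, 22.8 and 18.7 CPM in S226A and 11.3, 15.7, 18.0 and 39.7 in wild type, and its log2 fold change was 0.03 ± 0.21 (95% interval -0.40 to 0.46). Wild-type replicate 4 was the highest of the 8 lungs for Foxm1 and lay inside the S226A range for Plk1.

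Of the S-phase members, only Ccne2 passed in S226A lung. Mcm2 read 33.8, 57.3, 44.1 and 54.8 CPM in S226A lung and 36.4, 47.4, 32.8 and 44.0 in wild type (0.24 ± 0.12, adjusted p = 0.286). Mcm5 read 34.3, 61.9, 46.0 and 48.2 against 33.1, 46.2, 24.4 and 41.0 (0.39 ± 0.14, adjusted p = 0.133), and Rrm2 read 32.8, 48.0, 40.0 and 44.8 against 30.4, 38.5, 20.5 and 36.5 (0.39 ± 0.13, adjusted p = 0.106). The groups overlapped in each, and S226A replicate 1 lay among the wild-type lungs. Pcna read 49.2, 67.8, 57.5 and 66.1 in S226A and 56.6, 65.0, 38.3 and 36.8 in wild type (0.29 ± 0.13, adjusted p = 0.251). Cdc6 read 5.94, 14.2, 10.4 and 10.7 against 7.13, 9.93, 5.81 and 9.15 (0.36 ± 0.17, adjusted p = 0.286), and Ccne1 5.44, 10.2, 6.71 and 5.91 against 5.39, 6.83, 4.11 and 4.82 (0.41 ± 0.19, adjusted p = 0.259). S226A replicate 2 held the highest value of Pcna, Cdc6 and Ccne1. E2f1 was the exception in direction, with 8.04, 8.06, 11.6 and 7.40 CPM in S226A and 8.96, 7.9996, 10.6 and 18.8 in wild type (-0.40 ± 0.18, adjusted p = 0.25). Its difference came with a high value in wild-type replicate 4, the same lung that was high for Foxm1.

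Within litters the mitotic score was higher in the S226A lung of each of 4 litters. The difference in mitotic score between littermates was 0.78, 0.46, 0.24 and 0.12 for litters 2875, 2881, 2970 and 2972, and the difference in S-phase score was 0.60, 0.40, 0.17 and -0.08. Of the members 22 were higher in the mutant in all 4 litters, 18 mitotic and 4 S-phase, and 0 were lower in all 4, where 9.81% of all genes were higher in all 4. In a fit with litter as block, 19 members rose (16 mitotic and 3 S-phase), where 2.02% of all genes were called higher. The S-phase members among them were Ccne2 (0.72 ± 0.17, adjusted p = 0.0217), Rrm2 (0.41 ± 0.10, adjusted p = 0.0249) and Mcm5 (0.40 ± 0.10, adjusted p = 0.0217), and Ccna2 had the lowest adjusted p of the mitotic members (0.52 ± 0.08, adjusted p = 8.17e-04). The other mitotic members called were Tpx2 (0.42), Cenpf (0.53), Top2a (0.51), Cdk1 (0.49), Cenpe (0.55), Birc5 (0.59), Prc1 (0.44), Aurka (0.47), Kif11 (0.48), Nusap1 (0.50), Aurkb (0.52), Cdc20 (0.43), Mki67 (0.36), Ccnb1 (0.53) and Bub1b (0.31) (log2 fold change). The mitotic score difference was largest in litter 2875, whose wild-type lung is replicate 3, and smallest in litter 2972. The erythroid score, the mean of log2(CPM + 1) over 12 genes of the red cell lineage, had its largest and smallest difference in the same 2 litters, with 0.64, -0.15, -0.06 and -0.89 in the order above. None of the 12 erythroid genes passed in S226A lung, and their summed CPM was 2232 to 5826 against 2885 to 5608 in wild type, with none at 0. Their part in the members' values was not tested.

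**Figure D4:**
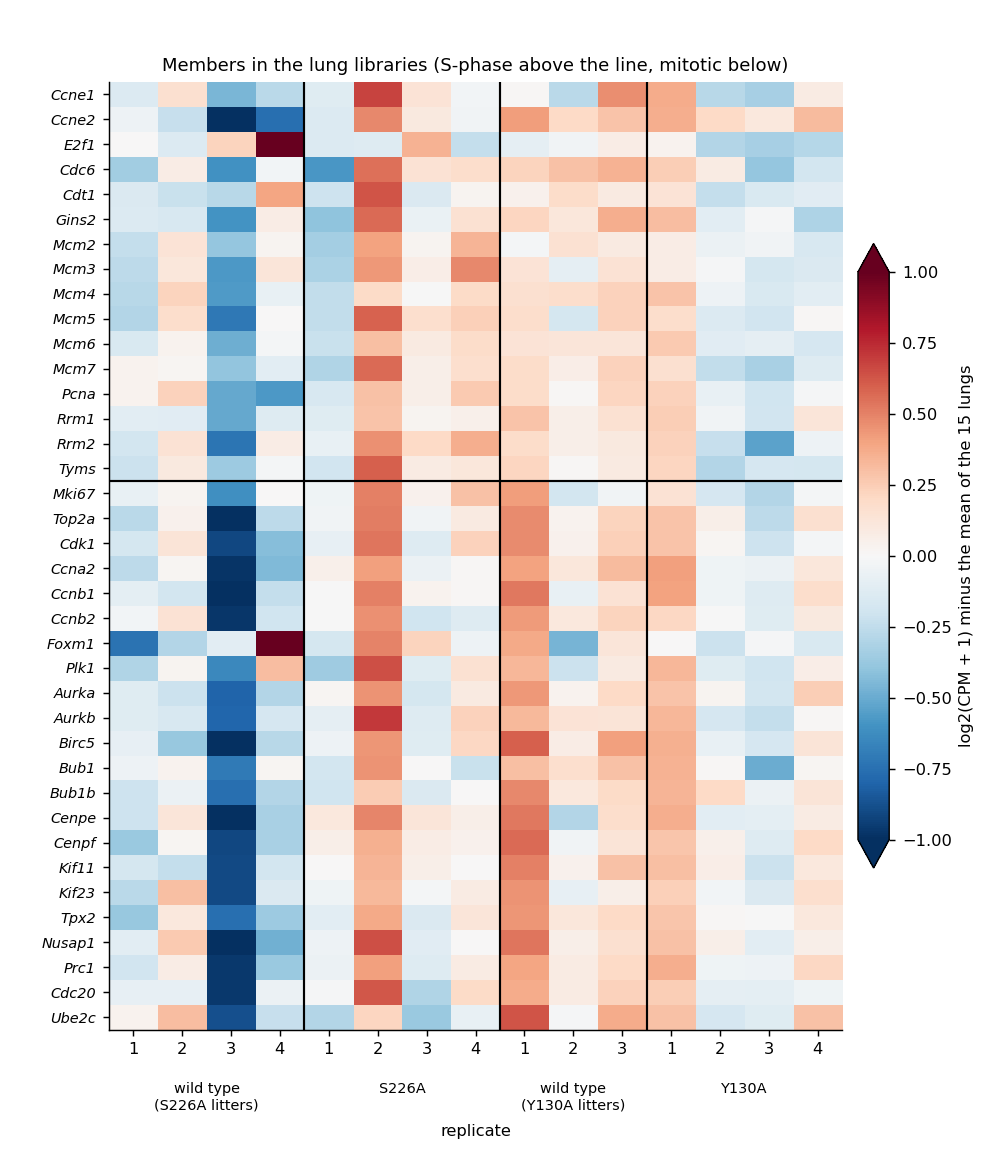
Each of the 38 members (rows, S-phase above the line) in each of the 15 lung libraries (columns, by group and replicate), as log2(CPM + 1) minus the mean of the gene over the 15 lungs, with the colour scale ending at 1 in either direction. Wild-type replicate 3 of the S226A litters is low in nearly every row, S226A replicate 2 is high in most, and E2f1 and Foxm1 are high in wild-type replicate 4 of the S226A litters.

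S226A lung replicate 2 stood above every wild-type lung in both scores, and the other 3 S226A lungs lay within the range of all 7 wild-type lungs. In the mitotic score the distance was small, 5.992 against a highest wild-type value of 5.985. Its mitotic scores of 5.46, 5.99, 5.46 and 5.596 compare with 5.99, 5.52 and 5.73 in wild-type lungs from Y130A litters, and its S-phase scores of 4.51, 5.18, 4.83 and 4.90 with 4.90, 4.799 and 4.95. These libraries differ in litter and depth as well, so no test was made between them. Markers of other cells moved in S226A lung too: 6 of 8 mature neutrophil genes passed and were higher, with a summed CPM of 147 to 198 against 37.6 to 80.8 in wild type and no gene of the list at 0 in either group. The summed CPM of 8 macrophage genes was 51.1 to 62.7 against 82.6 to 100.4, with 2 genes higher and 2 lower, and 2 of 8 B lineage genes were lower (31.6 to 60.6 against 27.5 to 58.0). The 6 granulocyte precursor genes, which mark cells that still divide, summed to 1.11 to 4.10 and 0.99 to 2.11 CPM and none passed. No gene of lung epithelium (7447 to 9865 against 7414 to 10515) or of stroma and endothelium (2937 to 3542 against 3173 to 4147) passed. The part of these cells in the rise of the members was not tested.

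In Y130A lung no member passed, where 0.0178% of all genes did, and 2 members had an unadjusted p below 0.05 (2.92% of all genes), Mcm7 (-0.29 ± 0.13) and Cdc6 (-0.36 ± 0.17). All 38 log2 fold changes were negative, where 48.2% of all genes had a positive one, with a median of -0.17 over the S-phase and -0.17 over the mitotic members, and the 95% intervals of the members reached from -0.71 to 0.31. Mki67 read 422, 339, 312 and 376 CPM in Y130A lung and 509, 336 and 373 in the 3 wild-type lungs. Top2a read 310.2, 265, 213 and 285 against 354, 260.3 and 297, and Cdk1 63.4, 52.6, 44.9 and 51.3 against 72.6, 53.4 and 61.3. Wild-type replicate 1 was the highest of the 7 lungs for these 3 genes. Ccnb1 read 38.4, 28.0, 26.3 and 32.7 CPM in Y130A and 42.1, 27.3 and 32.1 in wild type. Foxm1 read 19.4, 16.6, 19.2 and 17.4 against 25.5, 13.8 and 21.2, and Plk1 17.1, 12.2, 11.5 and 14.1 against 17.1, 11.4 and 14.3. The mutant and wild-type ranges overlapped in all of them. Mcm2 read 45.4, 41.3, 42.1 and 38.5 CPM in Y130A and 42.5, 48.1 and 46.0 in wild type, Mcm5 46.3, 37.0, 35.6 and 41.0 against 46.2, 36.0 and 48.0, and Pcna 65.0, 52.4, 47.9 and 54.6 against 62.8, 55.4 and 64.1. Rrm2 read 40.8, 29.3, 23.6 and 33.4 in Y130A and 39.6, 36.1 and 37.0 in wild type. For these 4 genes of replication Y130A replicate 1 lay within or above the wild-type range. Cdc6 read 11.3, 9.94, 6.90 and 8.104 against 11.1, 11.7 and 12.2, Ccne1 8.08, 4.798, 4.57 and 6.45 against 6.10, 4.83 and 8.70, and E2f1 9.15, 7.07, 6.86 and 7.14 against 8.29, 8.69 and 9.42. The groups overlapped in each of these as well, and no member separated the 7 lungs, where 4.16% of all genes did.

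The difference between the 2 mutant effects in lung was tested through the interaction. No member passed (lowest adjusted p = 0.0740), where 0.308% of all genes did, although 37 of 38 estimates were positive (50.3% of all genes were) and 31 had an unadjusted p below 0.05 (9.80% of all genes). With litter as block 12 members passed, all with a larger effect in S226A, 11 mitotic and 1 S-phase, where 0.385% of all genes did so. They included Birc5 (difference 0.92 ± 0.16, adjusted p = 0.00567), Top2a (0.73 ± 0.14, adjusted p = 0.0121) and Rrm2 (0.71 ± 0.15, adjusted p = 0.0245). The mitotic scores of the mutant lungs were 5.46, 5.99, 5.46 and 5.596 in S226A and 5.82, 5.50, 5.38 and 5.63 in Y130A. Those of the wild-type lungs were 5.34, 5.53, 4.67 and 5.36 (S226A litters) and 5.99, 5.52 and 5.73 (Y130A litters). The wild-type groups thus lay further apart than the mutant groups. How far this enters the interaction was not tested. Leaving out 1 library at a time without the block gave 0 to 8 members, the most when wild-type lung replicate 2 from an S226A litter was left out. In liver and brain no member passed this test, where 5.9% and 0.0829% of all genes did. There 0 members had an unadjusted p below 0.05 in either tissue (18.4% and 2.29% of all genes), and DESeq2 called 0. DESeq2 also called 0 members in S226A liver, S226A brain and the 3 Y130A tissues.

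S226A liver, in which 11.7% of all genes passed, had no member that did. The median log2 fold change was -0.04 over the S-phase and 0.00 over the mitotic members, no member had an unadjusted p below 0.05 (24.7% of all genes), and the 95% intervals of the 38 members reached from -0.51 to 0.69. Mki67 read 2829.5, 2941, 2788 and 2535 CPM in S226A liver and 3105, 3294, 3094 and 3058 in wild type, and every mutant was below every wild type (-0.18 ± 0.13, adjusted p = 0.443; exact permutation p = 0.0286, n = 4 each). Foxm1 was apart in the other direction, with 59.7, 57.5, 57.4 and 51.2 against 46.2, 45.6, 47.4 and 48.1 CPM (0.27 ± 0.21, adjusted p = 0.465; exact permutation p = 0.0286, n = 4 each). Mki67 and Foxm1 were the only members whose groups did not overlap in S226A liver, and 11.9% of all genes did not overlap there. For Foxm1 the mean ± SD was 56.4 ± 3.65 CPM in S226A liver and 46.8 ± 1.12 in wild-type liver. In lung, the wild-type littermates of S226A had 21.1 ± 12.7 CPM. The SE of Foxm1 in liver rests on the spread shared by all 12 groups, lungs included. The SEs, intervals and edgeR p-values of the members here thus do not measure the spread of the livers alone. Top2a read 724, 887, 719 and 612 CPM in S226A and 674, 787, 733 and 717 in wild type. Cdk1 read 124, 133, 104 and 106 against 101, 119.7, 99.6 and 112. Ccnb1 read 81.1, 123, 108 and 84.0 against 105, 113, 93.9 and 98.8, and Plk1 57.3, 64.1, 54.5 and 54.9 against 60.9, 53.8, 60.8 and 57.7. S226A replicate 2 was the highest of the 8 livers in these 4 genes. Mcm2 read 206, 241, 214 and 188 CPM in S226A and 195, 238, 251 and 209 in wild type, Mcm5 199.7, 241, 211 and 195 against 174, 209, 206 and 207, and Pcna 161, 231, 174 and 146 against 183, 202, 178 and 188. Rrm2, with 288, 345, 316 and 282 against 311, 379, 364 and 364 CPM, had the lowest unadjusted p of the members (log2 fold change -0.20 ± 0.12, adjusted p = 0.323). Cdc6 read 75.6, 103, 89.2 and 84.2 against 80.8, 94.0, 106 and 93.7, Ccne1 50.5, 57.8, 49.996 and 38.6 against 46.1, 52.5, 54.7 and 54.4, and E2f1 23.0, 28.9, 24.3 and 24.9 against 27.3, 24.9, 30.7 and 24.9. The S-phase groups overlapped in all 16 members. Markers of blood cells moved in the same livers: 6 of 6 granulocyte precursor genes were higher (1355 to 1795 against 545 to 616 summed CPM), 8 of 8 mature neutrophil genes were higher (7619.7 to 8353 against 2657 to 3289) and 7 of 8 macrophage genes were lower (187 to 303 against 731 to 906). The summed CPM of 8 B lineage genes was lower in every S226A liver than in every wild type (73.8 to 166 against 174 to 209). That of 12 erythroid genes was 22115 to 26281 against 22672 to 30599, and the groups overlapped. Between littermates the erythroid score was lower in each S226A liver. The differences were -0.13, -0.31, -0.28 and -0.07 for litters 2875, 2881, 2970 and 2972. The part of these blood cells in the members' values was not tested.

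Y130A liver had no member that passed either, where 0.272% of all genes did, with medians of 0.08 and 0.05, no unadjusted p below 0.05 (9.22% of all genes) and intervals that reached from -0.64 to 0.61. Mki67 read 3208, 3333, 3424 and 3395 CPM in Y130A liver and 3303, 3027, 3206 and 3675 in wild type, Top2a 937, 881, 776 and 838 against 842, 789.8, 712 and 921, and Cdk1 133, 124, 98.9 and 118 against 129, 103, 97.7 and 129. Ccnb1 read 116, 113, 102 and 115 in Y130A and 103, 99.4, 88.2 and 143 in wild type. The highest Ccnb1 was wild-type replicate 4, which also held the highest Mki67 of these 8 livers. Foxm1 read 24.7, 36.0, 44.7 and 37.2 against 39.7, 35.6, 43.1 and 48.1, its lowest value falling in replicate 1, the Y130A liver with squamous transcripts, and Plk1 read 58.4, 57.2, 61.1 and 62.5 against 51.7, 58.7, 62.0 and 60.1. Mcm2 read 243, 282, 229 and 237 CPM in Y130A and 257, 241, 213 and 244 in wild type, and Mcm5 208, 251, 224 and 201 against 236, 204, 180.0 and 215. Y130A replicate 2 was the highest liver for both helicase subunits. Pcna read 231, 258, 211 and 219.9 against 249.5, 205, 182 and 222, and Rrm2 345, 359.5, 310.3 and 302 against 347, 299.7, 296 and 343. Cdc6 read 90.3, 112, 104 and 87.3 against 105, 95.6, 80.2 and 88.8, Ccne1 44.2, 51.0, 54.1 and 42.3 against 51.3, 49.6, 36.7 and 39.8, and E2f1 17.4, 26.6, 29.5 and 23.5 against 21.8, 26.4, 20.7 and 24.2. No member separated the 8 livers, where 2.35% of all genes did.

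In S226A brain, where 0.243% of all genes passed, no member did, and 1 had an unadjusted p below 0.05, Bub1b (0.25 ± 0.12, adjusted p = 1). The medians were 0.01 and 0.08, with intervals of the members from -0.54 to 0.66. Mki67 read 108, 135, 123 and 133 CPM in S226A brain and 105, 113, 129 and 125 in wild type, Top2a 119, 137, 124 and 131 against 110.4, 128, 129.5 and 118, and Cdk1 18.8, 20.4, 18.0 and 19.8 against 17.9, 21.1, 19.2 and 18.9. Ccnb1 read 17.5, 20.4, 17.2 and 17.9 in S226A and 14.97, 19.5, 16.5 and 17.7 in wild type, Foxm1 9.17, 10.8, 10.8 and 9.04 against 10.3, 9.11, 10.4 and 8.33, and Plk1 4.20, 4.88, 5.77 and 5.45 against 5.89, 5.70, 5.77 and 5.59. Mutant and wild-type brains overlapped in all 6. Mcm2 read 21.8, 29.7, 24.5 and 25.6 CPM in S226A and 23.9, 25.1, 23.1 and 25.5 in wild type, Mcm5 26.8, 32.4, 28.3 and 31.8 against 26.9, 34.7, 29.7 and 28.7, and Pcna 59.2, 64.7, 59.96 and 62.9 against 56.2, 63.6, 60.4 and 57.4. Rrm2 read 34.4, 37.5, 35.7 and 34.9 against 31.0, 32.4, 32.8 and 34.8, which overlapped through wild-type replicate 4 (exact permutation p = 0.0571, n = 4 each). Cdc6 read 4.76, 5.66, 5.14 and 5.99 against 5.38, 5.78, 3.59 and 5.07, Ccne1 8.15, 8.62, 9.03 and 7.52 against 7.86, 8.28, 6.97 and 8.22, and E2f1 3.18, 4.14, 4.52 and 3.51 against 2.73, 3.04, 3.59 and 3.33. The groups overlapped in these 3 genes too.

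In Y130A brain, where 0.00592% of all genes passed, no member did and none had an unadjusted p below 0.05. The medians were -0.05 and 0.03, and the intervals reached from -0.57 to 0.46. Pcna was the member that separated the groups, with 65.4, 64.5, 69.0 and 67.1 CPM in Y130A and 69.9, 69.7, 76.5 and 70.8 in wild type (-0.11 ± 0.13 on the log2 scale; exact permutation p = 0.0286, n = 4 each), where 4.75% of all genes separated them. Mki67 read 154, 126, 119 and 108 in Y130A and 139, 126, 106 and 107 in wild type, and Top2a 143, 141, 138 and 136 against 146, 142, 129 and 127. Replicate 1 held the highest Mki67 in both groups and these replicates are of litter 2848. Cdk1 read 20.97, 21.3, 23.6 and 19.1 against 21.7, 19.7, 22.8 and 18.9, Ccnb1 16.8, 16.9, 18.3 and 15.8 against 17.5, 18.2, 18.3 and 14.3, and Foxm1 9.90, 9.24, 10.4 and 9.86 against 11.3, 8.85, 10.1 and 9.57. Plk1 read 8.80, 7.39, 6.98 and 6.00 against 7.54, 6.94, 6.38 and 6.44. The mitotic genes overlapped throughout. Mcm2 read 32.2, 30.3, 27.8 and 28.3 CPM in Y130A and 32.0, 29.9, 30.9 and 29.5 in wild type, Mcm5 32.2, 33.9, 35.2 and 33.4 against 34.1, 35.5, 39.9 and 32.7, and Rrm2 31.7, 34.2, 37.8 and 35.1 against 38.8, 37.1, 39.0 and 35.2. Cdc6 read 5.73, 5.93, 5.87 and 5.49 against 6.08, 5.81, 5.28 and 5.83, Ccne1 8.15, 8.03, 8.36 and 7.30 against 7.80, 8.93, 9.73 and 8.20, and E2f1 3.76, 4.27, 3.97 and 3.905 against 4.05, 3.80, 3.46 and 3.85. Values of single members in the Y130A brains stayed within a log2 fold change of -0.22 (Ube2c) to 0.13 of wild type.

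Other genes of the same processes, which are no members, were counted in the same fits. In S226A lung, where 0.852% of all genes were called higher, 4 of 31 other replication genes rose: Cdc7, the kinase that fires origins (0.73 ± 0.11, adjusted p = 4.52e-05), Cdc45 of the active helicase (0.58 ± 0.14, adjusted p = 0.0256), Rfc3 of the clamp loader (0.53 ± 0.13, adjusted p = 0.0192) and Lig1, which joins replicated fragments (0.43 ± 0.12, adjusted p = 0.0412). Of 43 other mitotic genes 4 rose: Kif2c, a depolymerase of microtubules (0.69 ± 0.15, adjusted p = 0.00949), Spc25 of the kinetochore (0.68 ± 0.17, adjusted p = 0.0229), Smc2 of condensin (0.55 ± 0.12, adjusted p = 0.00669) and Kif20a, a motor of cytokinesis (0.47 ± 0.12, adjusted p = 0.0412). The medians of these lists were 0.38 and 0.37, with 29 of 31 and 42 of 43 estimates above 0. Among 8 G1 cyclins and kinases, Ccnd3, cyclin D3, fell by 0.36 on the log2 scale (adjusted p = 0.0463) and the list had a median of -0.16. None of 6 CDK inhibitors tested and none of 12 genes of the E2F and RB family passed in S226A lung.

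S226A liver had no called gene among the 31 other replication genes (median 0.02), the 43 other mitotic genes (0.07), the G1 cyclins and kinases or the CDK inhibitors. In the E2F and RB family 3 of 12 passed, where 11.7% of all genes did: Tfdp1, a dimer partner of E2F proteins, rose by 0.38 ± 0.09 (adjusted p = 0.00209), while Tfdp2, another dimer partner (-0.40 ± 0.07, adjusted p = 1.81e-04), and Rb1, the retinoblastoma protein that holds E2F in check (-0.30 ± 0.09, adjusted p = 0.0178), fell. In S226A brain and in the 3 Y130A tissues no gene of these 5 lists passed. In Y130A lung 30 of 31 other replication genes and 42 of 43 other mitotic genes had negative estimates, with medians of -0.13 and -0.16, as the members did.

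**Figure D5:**
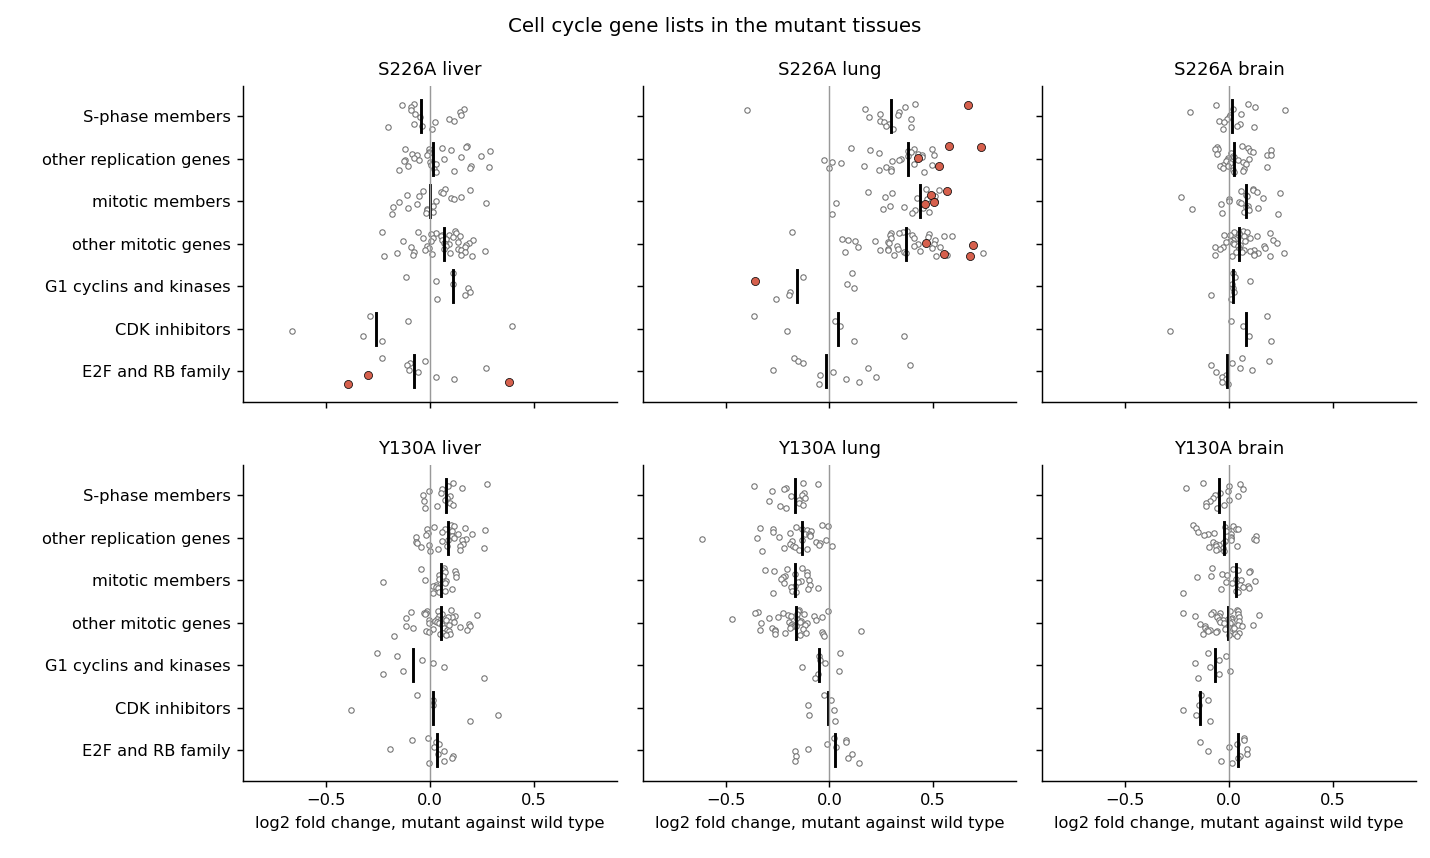
Log2 fold change of every tested gene of 7 cell cycle lists (rows) in the 6 comparisons of a mutant tissue with wild-type littermates. Points are genes, filled where the adjusted p was below 0.05, and black bars are list medians. The filled points of replication and mitosis lists lie in S226A lung only, to the right of 0, and S226A liver has 3 filled points, all in the E2F and RB family. The filled point left of 0 in S226A lung is Ccnd3.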

How the data were processed

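Total RNA of whole liver, lung and brain of E18.5 embryos was sequenced in 47 libraries from 17 embryos of 8 litters. The authors trimmed reads with Trim Galore 0.6.5, aligned them with STAR 2.6.0b to GRCm38.p6 and deposited 1 table of raw counts per gene (20456 genes), in which no column belonged to another sample; the strand setting of the counting is not given in the sources used here. Libraries were assigned to groups by their titles, and the litter number in a title marked littermates. No pair of libraries of a group agreed within sampling noise (lowest chi-square per degree of freedom 4.09 over 69 pairs). Counts in genes ranged from 15722147 to 54885020 per library. The edgeR p-values rest on 1 spread per gene, estimated over all 12 groups of 3 or 4 embryos. They do not measure the spread of the compared groups alone, and tissues of the same embryo entered as separate libraries. The SD of the mitotic score was 0.41 in wild-type lung, 0.15 in liver and 0.12 in brain.

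The counts were fitted with edgeR 4.0.16 in R 4.3.3 (quasi-likelihood test, 1 coefficient for each of 12 groups, all 47 libraries, TMM factors, filterByExpr with a minimum count of 10 and a minimum total of 15), which tested 16892 genes; log2 fold changes are given ± SE, and adjusted p-values follow Benjamini-Hochberg over all genes tested. The 95% intervals are not adjusted for multiple testing. Exact permutation tests of single genes used log2(CPM + 1) and were two-sided. They did not keep littermates paired and were not adjusted for multiple testing. Groups of 4 and 4 that do not overlap always give 0.0286 in this test, so it adds nothing to the lack of overlap. The script was tested on simulated data with known fold changes. Littermates deviated together: the deviations from group means of littermates in the same tissue correlated above 0.1 in 18 of 23 pairs (median r 0.21, lowest -0.05), against 5 of 69 pairs from other litters, so fits with litter as block are given beside the results they change. Alternatives were DESeq2 1.42.0, RLE factors, library size alone, no filter, only the libraries compared, litter as block, each set of litters alone, stringent criteria and leaving out each library.

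The 38 members and all lists were chosen with earlier results of these data known. Values in every library are given for 13 members picked for their roles and for the 3 called members with the largest and the 3 with the most negative log2 fold change of each mutant comparison; other called members, up to 20 and otherwise 6 in each direction, are named with their log2 fold change, and of other lists the called genes, up to 6 and otherwise 3 in each direction. Gene positions and exon overlaps come from GENCODE M21, promoter windows from RefSeq. Figures were drawn with matplotlib 3.10.9.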

Additional observations from a re-analysis of the deposited data

Results flagged for a closer look

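Among 165 groups of 4 libraries examined (the members with values in every library and both scores), 7 held a library whose gap to the nearest other library, divided by the range of the group, exceeded Dixon's 95% critical value for 4 samples. Chance gives this in about 1 of 20 groups, which is more than were found.

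The lungs held 4 of them. Wild-type lung replicate 3 of the S226A litters was lowest for Mki67 (249.5 CPM against 363 to 388, gap over range 0.849) and for Ccnb1 (13.8 CPM against 24.3 to 26.9, 0.846). S226A lung replicate 2 was highest for Ccnb1, with 41.3 CPM against 28.8 to 29.6 (0.921). Y130A lung replicate 1 was highest for E2f1, with 9.15 CPM against 6.86 to 7.14 (0.863). Both libraries named for Ccnb1 enter the comparison of S226A lung with wild type, which loses its called members without either.

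In liver, wild-type replicate 1 of the S226A litters was lowest for Mcm5 (174 CPM against 206 to 209, 0.911), and Y130A replicate 3 had the lowest mitotic score of its group (7.29 against a lowest other value of 7.39, 0.875). In brain, wild-type replicate 3 of the Y130A litters was highest for Pcna, with 76.5 CPM against 69.7 to 70.8 (0.841).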

How the results depend on the processing

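The count of members called in S226A lung depended on the fit. It was 5 in the reported fit, 0 under the stringent criteria, 1 with library size alone, 4 with RLE factors, 0 with no filter on low counts, 0 with only the libraries compared, 9 with DESeq2 and 19 with litter as block. Leaving out 1 library gave 0 to 19. For the difference between both mutant effects in lung the count was 0 in the reported fit, 2 with DESeq2 and 12 with the litter block, and 0 to 8 with 1 library left out. The litter block changed the count by over 1.5 times in no other comparison. Between wild-type lung and brain the stringent criteria left 17 of 37 called members, and leaving out 1 library gave 34 to 37. Between wild-type libraries of both sets of litters, lung gave 20 members in the reported fit, 0 under the stringent criteria, 0 with only the libraries compared and 8 to 26 with 1 library left out. Brain gave 3, and 0 under the stringent criteria, with RLE factors, with library size alone and with no filter, 8 with only the libraries compared and 0 to 2 with 1 library left out. Liver gave 0, 0 to 2 with 1 library left out and 1 without both livers that held squamous transcripts, an alternative chosen after seeing the data. The cause was not tested. Liver against brain and against lung kept a count of 38, and S226A liver and brain and the Y130A tissues a count of 0, in each alternative run. In S226A lung the called members lost the call in 39 single-gene alternatives and kept it in 31, and none changed sign. With 3 or 4 libraries a group, the 95% intervals of the members give the precision of each difference under the spread shared by all groups.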

Other observations

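Genes of the same pathways that are no members also differed between wild-type tissues, by edgeR's quasi-likelihood test over all genes at an adjusted p below 0.05. Of 43 other mitotic genes 43 were higher in liver than in brain, where 41.8% of all genes were, and 41 were higher in lung than in brain, with a median of 2.51 on the log2 scale in liver. Of 31 other replication genes 29 were higher in liver than in brain (median 1.78), and between lung and brain 13 were higher and 9 lower (median 0.13), where 41.3% of all genes were higher and 42.8% lower. Orc1, which marks replication origins, was higher in liver by 4.91 ± 0.17 (SE), and Cdc7, the kinase that fires them, was lower in liver than in brain (-0.74 ± 0.08) and in lung than in brain (-1.37 ± 0.08).

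The G1 cyclins and kinases had members in both directions. In liver against brain, 5 of 8 were higher and 3 lower, where 87.3% of all genes passed in either direction and 41.8% were higher. Ccnd3 (cyclin D3) had a log2 fold change of 3.31 ± 0.08 there and Cdk6, its kinase partner, of 2.95 ± 0.09, while Ccnd2 (cyclin D2) was lower in liver and Mycn had -3.43 ± 0.16. Ccnd1 (cyclin D1) was highest in lung, with 1.54 ± 0.08 over brain, and its liver value was lower than that of lung (-1.28 ± 0.08). In the E2F and RB family 10 of 12 genes were higher and 2 lower in liver than in brain, where 41.8% of all genes were higher, led by E2f2 (6.53 ± 0.10) and E2f8 (4.71 ± 0.15), an activating and a repressive E2F. Rbl2 (p130), a pocket protein of resting cells, was lower in liver than in brain (-0.27 ± 0.05) and than in lung (-0.58 ± 0.05). Of 6 CDK inhibitors tested 4 were higher and 1 lower in liver than in brain, beside the same 87.3% passing and 41.8% higher over all genes. Cdkn1c (1.76 ± 0.17) and Cdkn1a (1.15 ± 0.16) were among the higher, and Cdkn2b was lower.

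Within litters, members were counted by the direction of the difference in the other mutant tissues too. In S226A liver 3 members were higher and 5 lower in the mutant of all 4 litters (12.4% and 12.9% of all genes), in S226A brain 6 were higher and 1 lower (5.25% and 5.12%), in Y130A liver 6 were higher and 0 lower (6.601% and 6.23%), and in Y130A brain 4 were higher and 5 lower (11.2% and 13.6%). In Y130A lung, with 3 litters, 0 were higher and 13 lower (10.7% and 13.1%).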
